A study of Mus musculus with 10 samples.

Results

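The fibroblast growth factor (FGF) ligands and receptors examined here are 10 mouse genes, taken by symbol from the gene tables of all 10 RNA-seq libraries. They comprise 5 ligands (Fgf1, Fgf2, Fgf7, Fgf10 and Fgf18), the 4 receptor tyrosine kinases Fgfr1, Fgfr2, Fgfr3 and Fgfr4, and Fgfrl1, a receptor without a kinase domain. All 10 were present among the 14854 genes of the tables and all 10 passed the filter on low values. The libraries were made from lung mesenchyme of adult mice sorted by fluorescence into 5 lineages, 2 libraries each. The Negative, Axin2, Pdgfra and Axin2:Pdgfra cells all came from mice carrying Axin2CreERT2, a tdT reporter and PdgfraEGFP, and differ in which of the 2 labels they showed: neither, tdT alone, EGFP alone or both. Wnt2 cells came from mice carrying Wnt2CreERT2 and R26REFYP, so mouse line and lineage cannot be told apart for them. CreERT2 is a recombinase that tamoxifen activates. A reporter switched on by it marks cells in which the driver gene (Axin2 or Wnt2) was active at that time and their descendants, whereas EGFP in this line reports activity of the Pdgfra locus. Nothing in the labels ties the 2 libraries of a lineage to different animals. The p-values therefore describe how far these particular libraries scatter. That scatter may be technical, except that in Negative and Wnt2 the 2 libraries differ in transcripts of the sex chromosomes. In bulk samples, fewer cells of a type and less RNA per cell cannot be told apart.

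Most FGFs are secreted proteins that bind receptor tyrosine kinases together with heparan sulfate. The activated receptor recruits adaptors such as FRS2 and GAB1, and the pathway induces its own inhibitors, among them the Sprouty proteins and DUSP6. In the lung, FGF10 and FGF7 are classic mesenchymal ligands that signal to FGFR2 on the epithelium, and FGF18 takes part in lung development and alveolar formation. FGF1 and FGF2 lack a classical secretion signal, FGF1 binds all the receptors, and FGFRL1 binds ligand but has no tyrosine kinase domain.

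The deposited tables give a single value per gene and library, which behaves as a log2 scale. Each library's median lay at 9.1 or 9.11 and each library's highest value was 19.25. The lowest value of a library, shared by 2.1% to 18.4% of its genes, ranged from 1.0 to 2.67, and none of the 10 FGF genes was at it in any library. The tables hold no counts, so depth is unknown. Values of different genes are not corrected for gene length and are not compared with each other here. The fibrillar collagen genes Col1a2 (13.04 to 15.53) and Col3a1 (12.84 to 15.95) were high in every library, as in mesenchyme. Pdgfra itself was at 12 to 13.49 in the Negative and Axin2 libraries, 14.64 to 15.21 in the libraries with the EGFP label and 16.05 to 16.25 in Wnt2, but Axin2 (9.54 to 12.04) and Wnt2 (7.68 to 10.82) did not separate by their labels. Markers of other cells were present too: the summed level of 8 epithelial markers was 16.82 to 17.04 in Negative, 16.12 to 16.63 in Pdgfra, 15.35 to 15.88 in Axin2, 14.94 to 15.09 in Axin2:Pdgfra and 13.84 to 14.74 in Wnt2. A summed level is the log2 of the markers' values added on the linear scale. It mostly follows the genes with the highest values in a list, and gene length is not corrected for. None of the epithelial, endothelial, erythroid or pericyte markers was at the lowest value in both libraries of a lineage. The second libraries of the Negative and Wnt2 lineages stood apart in Xist, at 8.57 and 7.81 against 16.68 to 17.72 in the other 8. The Y-linked genes Ddx3y and Kdm5d read 10.74 and 10.03 in Negative library 2, 11.48 and 11.1 in Wnt2 library 2 and 8.15 and 7.61 in Wnt2 library 1, where Xist was at 17.04, and were at the lowest value in the other 7. The 2 libraries of each of these lineages thus differ in sex or in the mix of sexes. Results that end without these 2 libraries are given with the adjusted p or the difference of that fit, an alternative chosen after seeing the data.

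Fgf1, Fgf7, Fgfr1, Fgfr3 and Fgfr4 varied among the lineages. In an F-test over the 5 lineages, fitted with limma to all 10 libraries and adjusted with the Benjamini-Hochberg method over 14177 genes, 5 of the 10 passed at 0.05, with an adjusted p of 0.00692 for Fgf1, 0.0183 for Fgf7, 0.0366 for Fgfr1, 0.0282 for Fgfr3 and 0.00111 for Fgfr4. Of all genes tested, 8.2% passed. Fgf2 (0.0666), Fgf10 (0.0692), Fgf18 (0.0749), Fgfr2 (0.182) and Fgfrl1 (0.577) did not. Most calls depend on how limma pools the spread between genes: without its intensity trend and robust options, 23 of the 25 FGF results called in the F-test, the 4 planned contrasts and the 10 pairwise comparisons ended. The 2 that held were both for Fgfr4, its difference with the Pdgfra label (adjusted p = 0.0312) and Axin2:Pdgfra against Negative (0.041). The count over all genes fell too, from 1163 to 205 in the F-test and from 918 to 364 for the Pdgfra label.

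The genes Fgf7, Fgfr3 and Fgfr4 were higher with the Pdgfra label and their RefSeq promoter windows on GRCm38.p6 are shown here to let the stretch upstream of each be read beside its values. Fgfr1 was also higher with the label but had no matched window. Each sequence is the 250 bases before an annotated start, 5′ to 3′ on the gene's strand, which is the plus strand for all 3. The Fgf7 window is chr2:126034408-126034657, the first of 2 Fgfr3 windows is chr5:33721474-33721723 and the Fgfr4 window is chr13:55152568-55152817. Capitals mark the GC box letters GGGCGG on either strand.
Fgf7: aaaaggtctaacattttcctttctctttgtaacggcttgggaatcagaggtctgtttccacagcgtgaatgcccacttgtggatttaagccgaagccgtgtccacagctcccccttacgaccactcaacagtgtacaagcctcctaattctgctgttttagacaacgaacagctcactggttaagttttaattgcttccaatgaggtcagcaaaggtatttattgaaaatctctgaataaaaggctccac
Fgfr3: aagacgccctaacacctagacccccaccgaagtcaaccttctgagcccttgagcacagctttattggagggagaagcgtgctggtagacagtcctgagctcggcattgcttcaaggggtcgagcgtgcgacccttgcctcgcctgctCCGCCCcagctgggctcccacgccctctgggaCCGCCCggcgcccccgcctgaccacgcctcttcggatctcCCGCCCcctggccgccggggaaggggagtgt
Fgfr4: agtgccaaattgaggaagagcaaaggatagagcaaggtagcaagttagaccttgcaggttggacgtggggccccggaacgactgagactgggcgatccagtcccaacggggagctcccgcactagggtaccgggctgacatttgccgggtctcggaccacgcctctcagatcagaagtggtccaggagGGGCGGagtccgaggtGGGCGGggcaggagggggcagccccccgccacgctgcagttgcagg
The Fgf7 window has no GC box, the first Fgfr3 window has 3 and the Fgfr4 window has 2. Of 32851 windows of this length, 32.7% hold at least 1. The second Fgfr3 window, not printed, has 2 GC boxes, 72.8% G and C and 24 CpG. Base composition differed in the same way, with 43.6% G and C and 6 CpG in Fgf7, 66.8% and 19 in Fgfr3, and 64.0% and 15 in Fgfr4, against medians of 52.4% and 6 over all windows. Neither the TATA box letters TATAAA (12.4% of windows) nor the TCF/LEF letters ATCAAAG (3.2%), searched on both strands, occur in any of the 9 windows matched to 8 of the 10 FGF genes. Fgf1 and Fgfr1 were the genes without a window. A match or its absence describes these letters only.

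The ligands had different profiles across the lineages. Fgf1 read 13.98 and 14.25 in the Negative libraries, 12.3 and 12.45 in Pdgfra, 12.17 and 12.42 in Wnt2, 12.13 and 10.43 in Axin2, and 11.17 and 10.21 in Axin2:Pdgfra. Both Negative libraries lay above the other 8. Fgf1 was lower in Axin2:Pdgfra than in Negative (log2 difference −3.43 ± 0.53, SE, limma adjusted p = 0.00147), and lower in Axin2 than in Negative (−2.84 ± 0.53, 0.0313). The Axin2 difference ended without Negative library 2 (0.124), Axin2 library 2 (0.276), Pdgfra library 1 (0.0675) or Pdgfra library 2 (0.0682), with the second index as a covariate (0.0795), and without the 2 libraries of low Xist (0.215). The F-test for Fgf1 passed without each library in turn but not without those 2 together (0.0931). Epithelial markers, with the ranges given above, were highest in Negative too. The summed level of 6 endothelial markers was 15.3 to 16.76 in Negative, 15.95 to 16.02 in Pdgfra, 14.46 to 14.64 in Wnt2 and 14.04 to 14.74 in Axin2 and Axin2:Pdgfra, and that of 4 erythroid markers 15.89 to 16.31 in Negative and at most 11.19 elsewhere. Their part in the Fgf1 values was not tested.

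Fgf2 read 3.85 and 5.55 in the Negative libraries and 7.85 to 11.01 in the other 8, so that the Negative lineage did not overlap the rest. Elsewhere the libraries of a lineage were far apart, with 10.36 and 8.47 in Axin2, 10.01 and 8.23 in Pdgfra, 7.85 and 11.01 in Axin2:Pdgfra and 9.5 and 10.43 in Wnt2. The difference from Negative passed for Axin2:Pdgfra (4.73 ± 1.29, adjusted p = 0.0415) and Wnt2 (5.27 ± 1.29, 0.0279). The first ended when any 1 of 8 libraries was left out (0.051 to 0.298) and passed in 2 of the 10 such fits, those without Negative library 2 or Axin2:Pdgfra library 1. It also ended with values under log2 5 raised to 5 (0.0509), without the Wnt2 libraries (0.0822) and without the 2 libraries of low Xist (0.0857). The second ended without Negative library 0 (0.0763), Wnt2 library 1 (0.151) or Wnt2 library 2 (0.229), and without the 2 libraries of low Xist (0.186).

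Fgf7, also called keratinocyte growth factor, read 12.88 and 12.54 in Wnt2, 11.74 and 11.64 in Axin2:Pdgfra, 11.03 and 12.02 in Pdgfra, 8.97 and 10.8 in Negative and 9.79 and 8.22 in Axin2. The 4 libraries with the Pdgfra label all lay above the 4 of the same mouse line without it, and both Wnt2 libraries above all others. Fgf7 was higher in Wnt2 than in Axin2 (3.71 ± 0.7, adjusted p = 0.00804) and than in Negative (2.82 ± 0.7, 0.0297). The F-test for Fgf7 ended without Axin2 library 2 (0.0747), Wnt2 library 1 (0.096) or Wnt2 library 2 (0.072), and so did the difference from Axin2 (0.122, 0.11 and 0.068). The difference from Negative ended without Negative library 0 (0.121), Wnt2 library 1 (0.257), Wnt2 library 2 (0.147) or the 2 libraries of low Xist (0.0712).

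Fgf10 had a similar order, with 11.98 and 11.46 in Wnt2, 12.26 and 11.03 in Axin2:Pdgfra, 11.1 and 10.44 in Pdgfra, 10.42 and 9.89 in Negative and 9.64 and 8.9 in Axin2. Only Wnt2 against Axin2 passed (2.45 ± 0.62, adjusted p = 0.0413). It ended without Axin2 library 1 (0.0856) or 2 (0.266), Pdgfra library 1 (0.0611) or 2 (0.0575), Wnt2 library 1 (0.365) or 2 (0.181), with the second index as a covariate (0.0901), and without the 2 libraries of low Xist (0.14). The lowest library with the Pdgfra label (10.44) was close to the highest without it in the same line (10.42).

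Fgf18 was low in the Wnt2 lineage, with 3.37 and 6.96, while the other 8 libraries read 8.1 to 10.59. By lineage these were 10.59 and 9.42 in Negative, 10.26 and 9.92 in Axin2:Pdgfra, 9.83 and 8.1 in Pdgfra, and 9.28 and 8.6 in Axin2. Wnt2 was below Negative (−4.83 ± 1.23, adjusted p = 0.0336). That ended without Negative library 0 (0.108) or 2 (0.0633), Axin2 library 1 (0.0534) or 2 (0.0506), Pdgfra library 1 (0.0519) or Wnt2 library 1 (0.33).

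**Figure D1:**
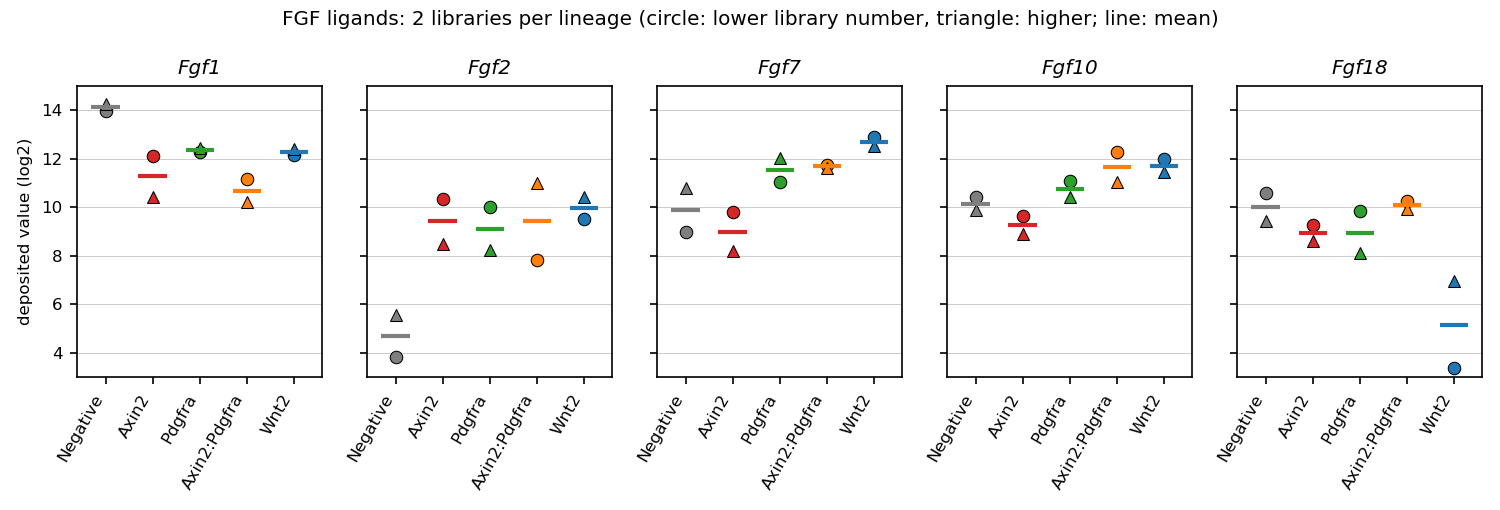
Deposited log2 value (vertical axis) of the 5 FGF ligands in the 5 lineages (horizontal axis); each point is 1 library and each line the mean of 2. Fgf1 is highest and Fgf2 lowest in the 2 Negative libraries, Fgf7 is highest in the 2 Wnt2 libraries (12.54 and 12.88), and Fgf18 is lowest there (3.37 and 6.96).

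Among the receptors, Fgfr4 had the clearest pattern. It read 13.21 and 13.18 in Pdgfra, 12.8 and 13.38 in Axin2:Pdgfra, 12.91 and 12.85 in Wnt2, 10.74 and 12.09 in Axin2 and 9.81 and 9.59 in Negative. The 6 libraries of the Pdgfra, Axin2:Pdgfra and Wnt2 lineages all lay above the other 4, and Negative below Axin2. Against Negative, Fgfr4 was higher in Pdgfra (3.49 ± 0.47, adjusted p = 0.00137), Axin2:Pdgfra (3.39 ± 0.47, 0.000713) and Wnt2 (3.18 ± 0.47, 0.00127). These 3 calls and the F-test passed without each library in turn, the highest adjusted p being 0.0323.

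Fgfr1, a receptor widely expressed in mesenchymal cells, read 12.83 and 13.19 in Pdgfra, 12.4 and 13.86 in Axin2:Pdgfra, 12.8 and 12.73 in Wnt2, 11.94 and 11.01 in Axin2 and 11.4 and 10.71 in Negative. The same 6 libraries were above the other 4. Among pairs, Axin2:Pdgfra against Negative passed (2.07 ± 0.51, adjusted p = 0.024), but not without Negative library 2 (0.129), Axin2:Pdgfra library 2 (0.218) or the 2 libraries of low Xist (0.196). The F-test ended without Negative library 2 (0.0897), Axin2 library 2 (0.0877), Pdgfra library 1 (0.0871) or 2 (0.0926), Wnt2 library 1 (0.0893) or 2 (0.0824), and without the 2 libraries of low Xist (0.181).

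Fgfr3 read 12.72 and 12.85 in Axin2:Pdgfra, 12.02 and 12.79 in Wnt2, 11.73 and 12.8 in Pdgfra, 10.33 and 11.96 in Negative and 9.79 and 10.21 in Axin2. Both Axin2 libraries were below all others. Against Axin2, Fgfr3 was higher in Axin2:Pdgfra (2.78 ± 0.57, adjusted p = 0.0222) and in Wnt2 (2.4 ± 0.57, 0.0299). The first ended without Axin2 library 1 (0.15) or 2 (0.126) or Axin2:Pdgfra library 1 (0.0754) or 2 (0.124). The second ended without Axin2 library 1 (0.161) or 2 (0.134), Wnt2 library 1 (0.106) or 2 (0.291), with the second index as a covariate (0.0708), and without the 2 libraries of low Xist (0.16). The F-test for Fgfr3 ended without Axin2 library 1 (0.14) or 2 (0.099), Pdgfra library 2 (0.0565), Axin2:Pdgfra library 1 (0.0552) or 2 (0.0634), Wnt2 library 1 (0.0523) or 2 (0.0737), and with the second index as a covariate (0.0594).

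The other 2 receptors passed no test. Fgfr2, the receptor of FGF7 and FGF10 in its epithelial splice form, read 11.92 and 11.71 in Negative, 12.7 and 10.82 in Pdgfra, 11.45 and 11.98 in Axin2:Pdgfra, 10.34 and 9.54 in Wnt2 and 11.11 and 8.69 in Axin2. A gene-level value does not separate the splice forms. Fgfrl1 read 10.37 and 9.67 in Axin2, 8.9 and 9.24 in Negative, 8.45 and 9.42 in Pdgfra, 8.15 and 8.5 in Wnt2 and 8.94 and 7.69 in Axin2:Pdgfra, the 2 Axin2 libraries being the highest of the 10.

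**Figure D2:**
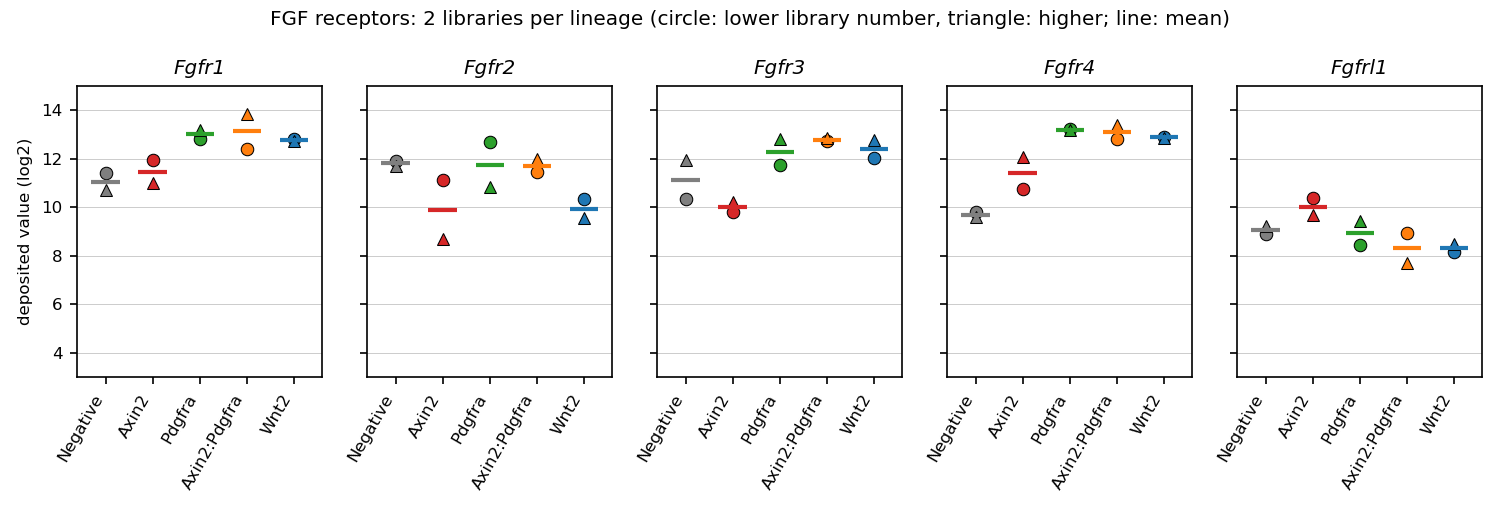
Deposited log2 value (vertical axis) of the 5 FGF receptor genes in the 5 lineages (horizontal axis); each point is 1 library and each line the mean of 2. For Fgfr1 and Fgfr4 the 6 Pdgfra, Axin2:Pdgfra and Wnt2 libraries lie above the 4 Negative and Axin2 libraries, whereas Fgfr2 and Fgfrl1 overlap.

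With the lineages ordered by mean, 0 of the 40 neighbouring pairs (4 for each gene) passed in limma. The widest gaps between neighbours were 4.42 ± 1.29 between Pdgfra and Negative for Fgf2 (adjusted p = 0.0889), 3.77 ± 1.23 between Axin2 and Wnt2 for Fgf18 (0.111), 1.78 ± 0.78 between Axin2:Pdgfra and Wnt2 for Fgfr2 (0.343) and 1.74 ± 0.53 between Negative and Pdgfra for Fgf1 (0.0959). Over the 10 pairwise comparisons, the FGF genes called and the share of all genes called were as follows. Between Axin2:Pdgfra and Negative 3 were higher and 1 lower (6.72% of all genes), and between Wnt2 and Negative 3 were higher and 1 lower (5.81%). Wnt2 against Axin2 gave 3 higher (4.05%), Axin2:Pdgfra against Axin2 gave 1 higher (2.3%), Pdgfra against Negative gave 1 higher (2.91%) and Axin2 against Negative gave 1 lower (0.6%). No FGF gene was called between Axin2 and Pdgfra (2.26%), between Wnt2 and Axin2:Pdgfra (0.635%), between Wnt2 and Pdgfra (0.367%) or between Axin2:Pdgfra and Pdgfra (0.0423%). These comparisons share libraries and are not independent.

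The receptors Fgfr4, Fgfr1 and Fgfr3 and the ligand Fgf7 were higher in cells with the Pdgfra label. The comparison sets the mean of Axin2:Pdgfra and Pdgfra against the mean of Axin2 and Negative, 4 libraries each from 1 mouse line. In limma, 4 of the 10 FGF genes were higher and 0 lower, where 6.48% of all genes were called in either direction. The median difference over the 10 was 1.66, and over all genes 0. Fgfr4 was higher by 2.59 ± 0.33 (SE, 95% interval 1.88 to 3.3, adjusted p = 0.000372), Fgfr3 by 1.95 ± 0.41 (1.08 to 2.82, 0.00976), Fgfr1 by 1.81 ± 0.36 (1.04 to 2.57, 0.00722) and Fgf7 by 2.16 ± 0.5 (1.1 to 3.22, 0.017). Libraries with and without the label did not overlap for Fgfr4 (12.8 to 13.38 against 9.59 to 12.09), Fgfr1 (12.4 to 13.86 against 10.71 to 11.94) or Fgf7 (11.03 to 12.02 against 8.22 to 10.8). They did for Fgfr3 (11.73 to 12.85 against 9.79 to 11.96), because Negative library 2 read 11.96. Fgf10 did not overlap either but missed the threshold (1.5 ± 0.44, 0.0599). Here and in the other comparisons, the share of all genes without overlap was not counted. Ranges of genes and markers are therefore given as a description only. The remaining 5 were not called: Fgf1 (−1.17 ± 0.37, 0.0829), Fgf2 (2.21 ± 0.91, 0.185), Fgfr2 (0.88 ± 0.55, 0.405), Fgf18 (0.06 ± 0.87, 0.982) and Fgfrl1 (−0.92 ± 0.66, 0.48).

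Fgfr4 and Fgfr1 passed without each library in turn, with adjusted p up to 0.00529 and 0.0484. Fgf7 did not pass without Axin2 library 2 (0.0816) or Pdgfra library 2 (0.0939), nor Fgfr3 without Pdgfra library 2 (0.0657). The labels give each library a pair of index sequences, and the second index splits the libraries into 6, which include both Axin2 libraries, and 4, which include none. Within the 6 and the 4, the difference with the Pdgfra label was 2.67 and 3.42 for Fgfr4, 2.09 and 1.91 for Fgfr1, 0.89 and 1.8 for Fgf10, 2.84 and 0.58 for Fgf7, and 2.66 and 0.26 for Fgfr3. So for Fgf7 and Fgfr3 the difference was small in the 4 libraries that hold 1 Negative and no Axin2 library. In those 4 the label is set against Negative library 2 alone, which is not the full contrast. With the second index as a covariate all 4 calls passed. With the replicate number as a block Fgf7 ended (1.64, limma adjusted p = 0.0759). Without limma's trend and robust options Fgf7 (0.107), Fgfr1 (0.101) and Fgfr3 (0.0986) ended. The summed level of 8 pericyte markers was 14.16 to 14.61 with the label and 15.7 to 17.99 without. Of the 8, 5 were lower without overlap and 3 overlapped, among which Kcnj8 (means 11.29 with and 9.7 without) and Abcc9 (12.54 and 11.37) had the higher mean with the label. The sum of 6 smooth muscle markers was 13.25 to 14.65 with the label and 13.87 to 17.38 without, 2 of the 6 being lower without overlap. The fibroblast sums were higher with the label, at 17.21 to 17.49 against 16.39 to 16.73 for 6 alveolar markers and 15.89 to 16.95 against 14.59 to 15.41 for 7 adventitial markers, with 3 markers of each list higher without overlap. The share of all genes without overlap was not counted, so these marker counts are a description only. The part of the markers in the result was not tested.

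**Figure D3:**
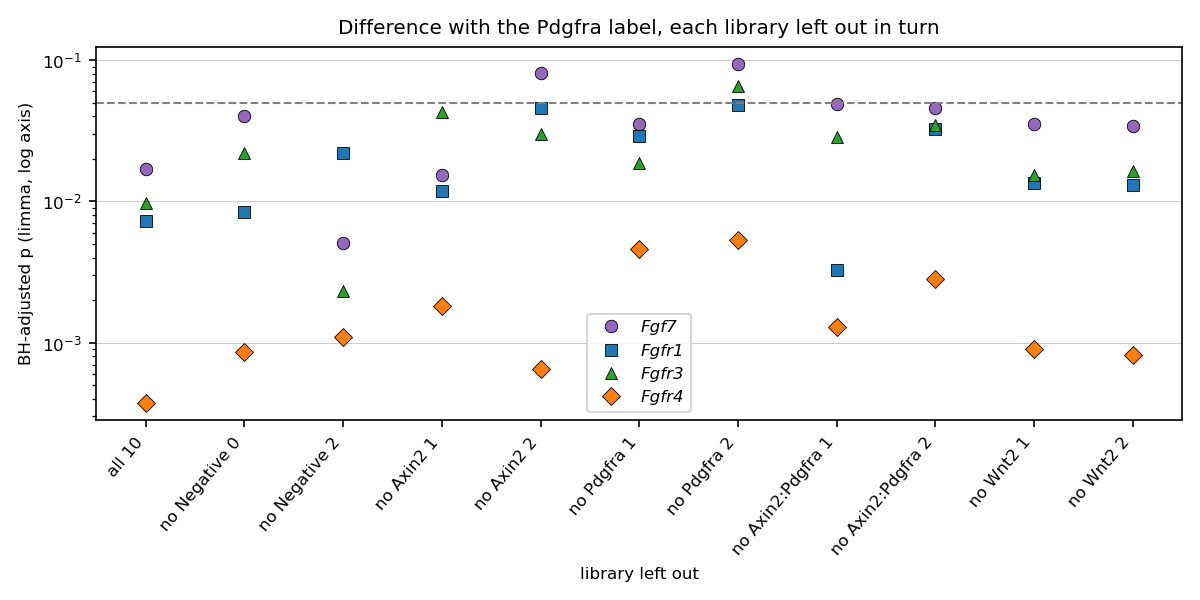
Benjamini-Hochberg adjusted p from limma (vertical log axis) for the difference with the Pdgfra label of the 4 FGF genes called, with all 10 libraries and with each left out in turn (horizontal axis); the dashed line is 0.05. Fgfr4 and Fgfr1 stay below the line throughout, Fgf7 lies above it without Axin2 library 2 or Pdgfra library 2, and Fgfr3 without Pdgfra library 2.

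For the Axin2 label, the mean of Axin2:Pdgfra and Axin2 against the mean of Pdgfra and Negative, Fgf1 was the 1 FGF gene called, where 1.64% of all genes were called. The 4 libraries with the label read 10.21 to 12.13 and the 4 without it 12.3 to 14.25, with no overlap. Fgf1 was lower with the label (−2.26 ± 0.37, 95% interval −3.06 to −1.46, limma adjusted p = 0.0119). Within the second-index set of 6 libraries the difference was −2.47. The set of 4 holds no Axin2 library. Its difference of −2.1 sets Axin2:Pdgfra library 1 against Pdgfra library 1 and Negative library 2, which mixes the 2 labels. The call ended without Axin2 library 2 (difference −1.83), Pdgfra library 1 (−2.3) or the 2 libraries of low Xist (−2.19). The difference kept its sign, and fewer of all genes were called in these fits too. The median difference over the 10 FGF genes was 0.01, and over all genes 0.07. The interaction of the 2 labels, which tests whether the difference with one depends on the other, was called for no FGF gene (adjusted p 0.456 to 0.922) and for 0% of all genes in limma, with 1296 at an unadjusted p under 0.05. The smallest unadjusted values were those of Fgfr4 (−1.82 ± 0.66, unadjusted p = 0.0159, adjusted p = 0.456) and Fgf2 (−4.4 ± 1.83, unadjusted p = 0.0301, adjusted p = 0.497).

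In the Wnt2 lineage, Fgf18 was lower than the mean of the other 4 lineages (−4.33 ± 0.98, 95% interval −6.42 to −2.24, limma adjusted p = 0.0319). It was the 1 FGF gene called, where 2.16% of all genes were. Within the second-index sets the difference was −6.01 in the 6 libraries and −2.87 in the 4, where the other lineages include no Axin2 library. The result rests mostly on Wnt2 library 1, at 3.37: without it the difference was −2.54 (0.721). The call also ended without Axin2 library 1 (0.0694) or 2 (0.0602), Pdgfra library 1 (0.0829), Axin2:Pdgfra library 1 (0.0579) or 2 (0.0539), and without both Negative libraries (0.0608). Fgf7, with no overlap between Wnt2 (12.54 to 12.88) and the rest (8.22 to 12.02), just missed the threshold (2.18 ± 0.55, 0.0586). Fgf10 (1.26, 0.25), Fgfr4 (1.03, 0.21) and Fgfr2 (−1.36, 0.329) were not called. Wnt2 libraries also had the highest alveolar fibroblast marker sum (17.95 to 18.21) and the lowest pericyte (11.98 to 12.2), smooth muscle (12.59 to 12.96), mesothelial (3.85 to 4.0) and epithelial sums. Their adventitial sum was 14.59 to 14.93, which overlapped that of Negative (14.59 to 15.22). It was 15.33 to 15.41 in Axin2 and 15.89 to 16.95 in Pdgfra and Axin2:Pdgfra. The part of these markers in the Wnt2 results was not tested.

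**Figure D4:**
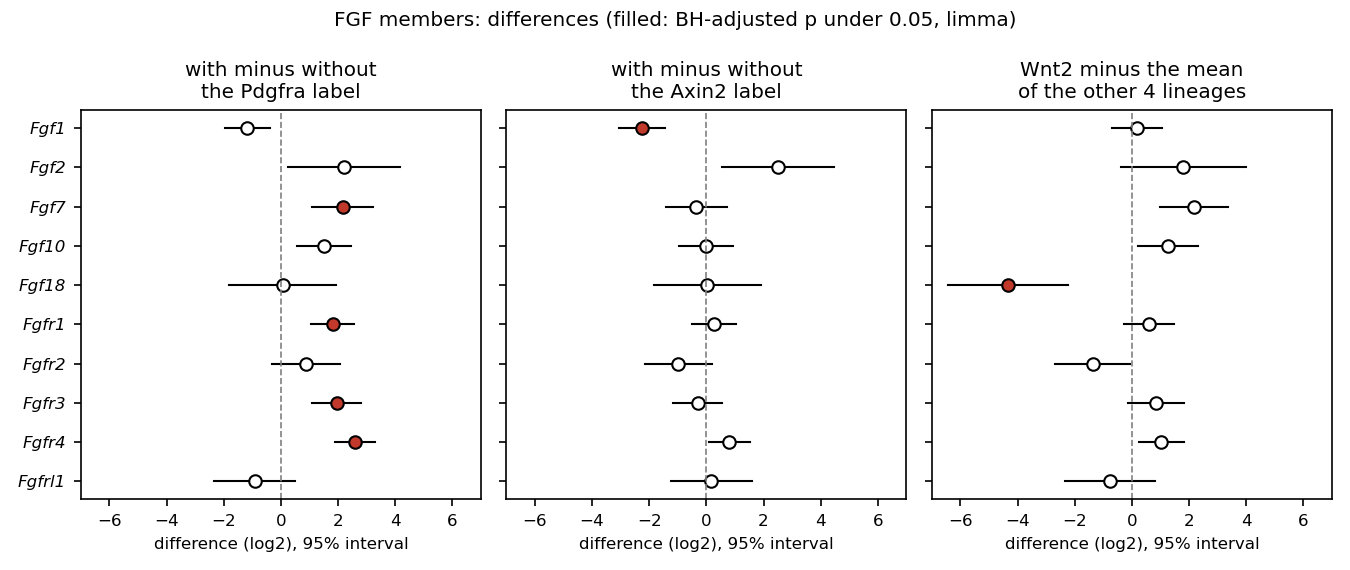
Differences on the log2 scale (horizontal axis) with 95% intervals for the 10 FGF genes in 3 comparisons, from limma on all 10 libraries; filled points have an adjusted p under 0.05. Fgf7, Fgfr1, Fgfr3 and Fgfr4 are filled for the Pdgfra label, Fgf1 for the Axin2 label and Fgf18 for Wnt2.

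Other genes of the pathway were taken from a list of 67, of which 50 were in the tables and 47 passed the filter on low values. The F-test called 10 of the 47 (21.3%, against 8.2% of all genes): the FLRT proteins Flrt2 and Flrt3, which bind FGF receptors, the heparan sulfate proteoglycans Gpc4, Sdc3 and Hspg2, the heparan sulfate enzymes Ndst1, Hs2st1, Sulf1 and Sulf2, and the adaptor Gab1. Without limma's trend and robust options 1 of them, Sdc3, passed (0.0398). With the replicate number as a block Flrt2 (0.0647) and Flrt3 (0.17) ended, and with the second index as a covariate Gab1 did (0.0581). With libraries left out singly 3 of the 10 ended: Flrt3 without Negative library 0 (0.134) or 2 (0.0802), Sulf2 without Pdgfra library 1 (0.0591), Wnt2 library 1 (0.114) or 2 (0.0912), and Gab1 without any 1 of 7 libraries (0.0503 to 0.131). Those 3 also ended without the 2 libraries of low Xist (0.117, 0.0609 and 0.117). Of 17 further FGF family genes 3 were in the tables: Fgf11, Fgf12 and Fgf14. Neither of the 2 tested, Fgf11 and Fgf14, passed. None of the 10 feedback inhibitors and ETS targets passed.

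With the Pdgfra label 2 of the 47 genes were higher and 7 lower (19.1%, against 6.48% of all genes), with a median of −0.03 against 0 over all genes. Sulf1, a sulfatase that trims heparan sulfate outside the cell, read 12.27, 11.78, 12.55 and 12.67 with the label and 8.81, 10.33, 10.74 and 10.63 without (2.19 ± 0.45, limma adjusted p = 0.00849). Without Pdgfra library 1 its adjusted p was 0.0511. Flrt2 read 10.15 to 11.32 with the label and 1.79 to 9.79 without (4.31 ± 0.91, 0.0102), where 1.79 is the lowest value of Negative library 0. It ended without Pdgfra library 1 (0.059). Neither set overlaps.

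Of the heparan sulfate proteoglycan core genes tested, Sdc3, Gpc4 and Hspg2 were lower with the label. The syndecan Sdc3 read 9.9 to 11.85 with the label and 13.4 to 14.95 without (−3.19 ± 0.32, limma adjusted p = 4.52e-05), the glypican Gpc4 6.89 to 10.49 and 11.79 to 13.23 (−4.07 ± 0.64, 0.00152), and perlecan, Hspg2, 13.76 to 14.42 and 15.27 to 16.45 (−1.57 ± 0.22, 0.000655). For all 3 the libraries with and without the label did not overlap, and each passed with any single library left out. The other core genes were not called, with differences of 0.73 for Gpc3, 0.28 for Gpc1, 0.2 for Sdc4, −0.17 for Sdc2 and −1.84 for Sdc1. Of 12 heparan sulfate enzymes, whose median difference was 0.26, Sulf1 was higher and 2 were lower, the sulfotransferases Hs2st1 (−1.42 ± 0.25, 0.00367) and Ndst1 (−1.26 ± 0.23, 0.00375). So were Gab1 (−1.28 ± 0.27, 0.00968; without Axin2 library 2, 0.0681) and Flrt3 (−3.46 ± 0.78, 0.0154), the latter ending without Negative library 0 (0.0533), Axin2 library 1 (0.08) or Pdgfra library 1 (0.06). Of these 9 calls, those of Sdc3 (0.0183) and Gpc4 (0.0297) passed without trend and robust options. That of Flrt3 ended with the replicate number as a block (limma adjusted p = 0.0633). The pericyte sum given above was also lower with the label, though not every pericyte marker was, while the smooth muscle sums overlapped. The part of these markers was not tested.

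The 10 feedback inhibitors and ETS targets, which FGF signalling is known to induce, had a median difference of −0.22 with the label and none was called. Dusp6 read 10.98 to 11.86 with the label and 11.23 to 11.68 without (0.12, limma adjusted p = 0.887). Spry1 was at 11.67 to 12.32 and 10.43 to 11.74 (0.85, 0.217), Spry4 at 11.77 to 12.45 and 12.77 to 13.54 (−0.97, 0.0546), Spred1 at 10.36 to 11.45 and 11.66 to 12.69 (−1.26, 0.0522), and Spred2 at 10.56 to 11.61 and 11.92 to 13.27 (−1.13, 0.0748). Spry4, Spred1 and Spred2 did not overlap but missed the threshold. Spred3 (3.04, 0.401) had the opposite sign and was at a library's lowest value in 4 libraries.

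**Figure D5:**
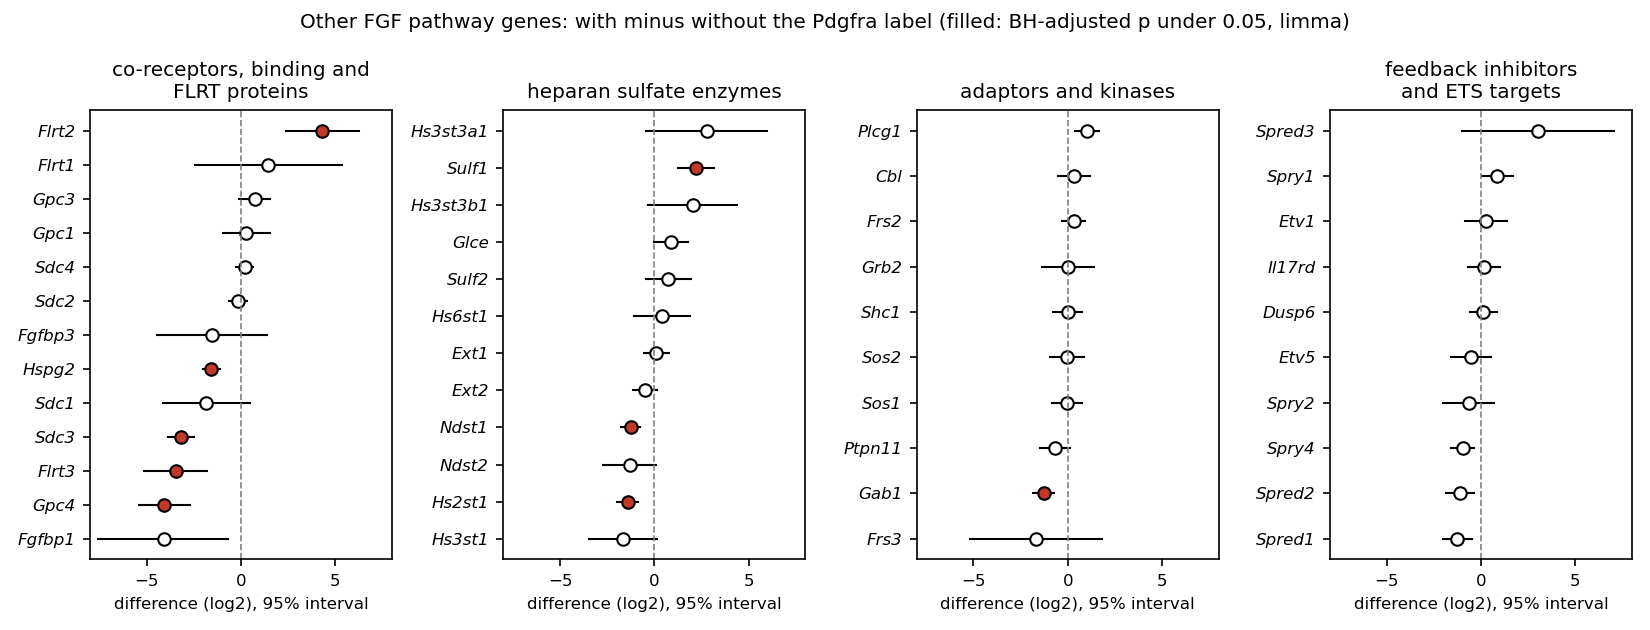
Differences with the Pdgfra label on the log2 scale (horizontal axis) with 95% intervals, for 45 pathway genes in 4 roles, from limma on all 10 libraries; filled points have an adjusted p under 0.05. Flrt2 and Sulf1 are filled on the higher side, 7 genes are filled on the lower side, and no feedback inhibitor or ETS target is filled.

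In Wnt2 against the mean of the other 4 lineages, 6 of the 47 pathway genes were lower and 0 higher (12.8%, against 2.16% of all genes), with a median of −0.15 against 0.13 over all genes. Sulf2 read 7.22 and 7.43 in Wnt2 and 8.79 to 12.07 elsewhere (−3.45 ± 0.62, limma adjusted p = 0.00983), and Sulf1 9.04 and 8.22 against 8.81 to 12.67 (−2.6 ± 0.5, 0.0138). The others were Gpc4 (−3.34 ± 0.71, 0.0251), Sdc3 (−2.27 ± 0.35, 0.00374), Ndst1 (−1.81 ± 0.25, 0.00172) and Hspg2 (−1.65 ± 0.25, 0.00263). Each ended without at least 1 Wnt2 library: without library 1, Sulf2 (0.152), Sulf1 (0.0915), Gpc4 (0.526) and Ndst1 (0.0535), and without library 2, Sulf2 (0.107), Sulf1 (0.289), Gpc4 (0.0811), Sdc3 (0.0974) and Hspg2 (0.0608). Gpc4 also ended without Axin2 library 2 (0.0752), Pdgfra library 2 (0.0537) or both Negative libraries (0.106). Without the 2 libraries of low Xist, Sulf2 (0.0532), Sulf1 (0.194), Gpc4 (0.0881) and Sdc3 (0.0552) ended. Sulf1 overlapped the rest, since Negative library 0 read 8.81. With the Axin2 label 3 of the 47 were called (6.38%, against 1.64% of all genes): the syndecan Sdc2 was higher (0.98 ± 0.22, 0.0462) and Ndst1 (−1.4 ± 0.23, 0.0107) and Hs2st1 (−1.07 ± 0.25, 0.0486) were lower. Without the 2 libraries of low Xist the calls of Sdc2 (difference 0.83) and Hs2st1 (−1.16) ended. Both also ended with the second index as a covariate (limma adjusted p 0.0821 and 0.0826) and without the Wnt2 libraries (0.069 and 0.0718). Hs2st1 ended too with no filter (0.0508) and with the replicate number as a block (0.0519). Sdc2 passed only without Negative library 0 (the other 9 fits gave 0.0741 to 0.192), Hs2st1 in none of the 10 fits (0.0544 to 0.21), and Ndst1 not without Axin2 library 2 (0.079) or Pdgfra library 1 (0.109).

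Over the 10 libraries, which share lineages and are no independent sample, the FGF genes with the most similar profiles to each other were Fgf7 and Fgfr3 (Pearson r = 0.86), Fgfr1 and Fgfr4 (0.83) and Fgf7 and Fgf10 (0.8). Fgf2 and Fgfr4 had r = 0.73 and Fgf1 and Fgfr4 −0.69. Among 10085 other genes above the lowest value in every library, the closest profile to Fgfr4 was that of Usp11 (0.975), then Fam20b (0.953) and 1810010H24Rik (0.949). Fgf7 was closest to Adamts17 (0.976), Vipr2 (0.962) and Scube2 (0.958), and Fgf10 to Rsbn1 (0.962), Nae1 (0.954) and Dnajc25 (0.931). For Fgf1 these were Pkp2 (0.951), Nedd4l (0.949) and Snx25 (0.945), for Fgf2 Fblim1 (0.943), Smyd3 (0.94) and Fam102b (0.93), and for Fgf18 Prdx1 (0.928), Gprc5b (0.926) and Plce1 (0.912). Fgfr1 was closest to Vps4b (0.957), Nxpe3 (0.948) and Chic1 (0.944), and Fgfr3 to Cyp2d22 (0.934), Ppa1 (0.93) and Tnip1 (0.927). Fgfr2 was closest to Fzd2 (0.93), Tex15 (0.92) and Mcf2l (0.891), and Fgfrl1 to Mast2 (0.928), Tpm1 (0.898) and Fkbp8 (0.889). These are the highest 3 of many correlations over 10 points and are given as a description.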

How the data were processed

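RNA from sorted lung mesenchyme of adult mice was sequenced in 10 libraries, 2 for each of 5 lineages, grouped by the lineage label. The submitters' processing notes name STAR, limma and the build mm9. Versions, annotation, counter and what limma was used for were not stated there. Each deposited table holds 1 log2 value per gene, made by the authors; the log2 scale is inferred from the values, whose near-identical distributions are as quantile normalization leaves them. Because the lowest value differs between libraries (1.0 to 2.67), differences of low genes depend partly on it. Of 14854 Ensembl identifiers, 14720 matched a symbol.

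Genes of log2 6 or more in at least 2 libraries (14177) were fitted with limma 3.58.1 in R 4.3.3: 5 lineage means, all 10 libraries, eBayes with trend and robust, two-sided, Benjamini-Hochberg adjustment over all 14177 genes, threshold 0.05, 5 residual degrees of freedom. The fit was tested on simulated data with known differences for the Pdgfra label. It called 23 of 100 changes of log2 2 and 52 of 100 of log2 4, with 0 in the wrong direction. Of the unchanged genes 2 were called. Many true changes were thus missed in the simulation, so a gene that was not called may still differ. No other simulated gene was changed, whereas 918 genes were called for the Pdgfra label in the data. The simulated rates need not hold for the data. Named genes are all 10 FGF genes, every called gene of the pathway list, and for likeness the 3 genes of highest Pearson correlation with each. Members and lists were chosen with earlier results of these data known. Alternatives were other filters, a floor, eBayes settings, a replicate block, the second index as covariate, centring, and libraries left out. Promoter sequences are RefSeq's on GRCm38.p6; no other coordinates are given, because the tables use mm9.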

Additional observations from a re-analysis of the deposited data

How the results depend on the processing

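Of the 25 FGF results called, the alternatives of no filter, a filter of log2 8 and median centring ended 0, a floor of log2 5 ended 1, the second index as a covariate 4, the replicate block 7 (and began 1), leaving out the 2 libraries of low Xist 10, and eBayes without trend and robust 23. Without trend and robust the counts of FGF genes called were 0 in the F-test, 1 for the Pdgfra label, 0 for the Axin2 label, 0 for Wnt2 against the rest and 1 over the pairwise comparisons, and the pathway list's F-test count was 1. Wnt2 against the rest also gave 0 without the Negative libraries. Without the 2 libraries of low Xist the Axin2 label gave 0 and the pairwise comparisons 8. With each library left out in turn the counts ranged from 2 to 5 for the F-test, 2 to 5 for the Pdgfra label, 0 to 1 for the Axin2 label, 0 to 2 for Wnt2 against the rest and 7 to 17 for the pairwise comparisons; the cause was not tested. The labels' replicate numbers showed no pairing of the samples, as deviations of same-numbered libraries correlated at -0.061 to 0.028. Negative, whose libraries are numbered differently, was not in this check, and a weak pairing could go unseen. With the replicate block Wnt2 against the rest gave 0 calls, Fgf18 at -4.16 (adjusted p = 0.0549), and Fgf7 with the Pdgfra label was 1.64 (0.0759). Signs reversed for 31 values, of which 0 were called and the largest was 0.44 in size. With the second index as a covariate these were Fgf10 with the Axin2 label (0.05), Fgf18 with the Pdgfra label (-0.22) and the interaction for Fgfr1 (0.03). Without the 2 libraries of low Xist they were, with the Axin2 label, Fgf7 (0.1), Fgf18 (-0.26) and Fgfr3 (0.1), Fgf18 with the Pdgfra label (-0.24) and the interaction for Fgfr1 (0.05). With each library left out in turn, the Axin2 label ranged from -0.81 to 0.1 for Fgf7, -0.31 to 0.3 for Fgf10, -0.4 to 0.47 for Fgf18, -0.1 to 0.64 for Fgfr1, -0.72 to 0.1 for Fgfr3 and -0.14 to 0.48 for Fgfrl1. Fgf18 with the Pdgfra label ranged from -0.38 to 0.49, the interaction for Fgfr1 from -1.03 to 0.44, and Fgf1 in Wnt2 against the rest from -0.03 to 0.39. Leaving out 1 of 2 libraries assumes that the lone one varies like the other lineages. The number of all genes called changed in these fits too, falling in some and rising in others. A call that ended therefore need not mean a smaller difference. The pseudocount and DESeq2 alternatives were not run, because the tables hold log2 values. Depth is unknown.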
